A study of Homo sapiens with 15 samples.

Results

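The genes described here are 10 genes of prostaglandin synthesis and response: PTGS1, PTGS2, PTGES, PTGES2, PTGES3, PTGIS, PTGER2, PTGER4, PLA2G4A and HPGD. They were chosen by name from the prostaglandin pathway, with earlier results of these data known, and no cutoff on a measured value was used. They are 10 of the 18417 genes that the array's annotation names. Each had 1 transcript cluster, the set of probes that the array reports as 1 value. RNA of MH7A, a human synovial cell line, was hybridised to Human Gene 1.0 ST microarrays of Affymetrix, 15 in all, for 5 conditions in 3 experiments. The IL-1β+GlcN+alloxan cells were held for 30 min in 5 mM alloxan, an inhibitor of the O-GlcNAc transferase, then in 2 mM alloxan with 5 mM glucosamine (GlcN) for 2.5 h, and then stimulated. The IL-1β+GlcN cells had 5 mM GlcN for 2.5 h before the cytokine, and the IL-1β+alloxan cells had the alloxan steps without GlcN. The cells stimulated with IL-1β alone had neither agent, and in all 4 stimulated conditions the cytokine was given at 15 pg/ml and the cells were kept in it for 13 h. The resting cells had no cytokine, no GlcN and no alloxan, so that there were no unstimulated cells with GlcN or alloxan. All conditions were of this single line, and the sources do not say that the 3 experiments came from separate cultures or passages. The p-values and intervals of the main test are based on the spread left after each experiment's mean level was removed, pooled over the 5 conditions. They hold for these 3 experiments only.

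Prostaglandins are made from arachidonic acid, which the cytosolic phospholipase encoded by PLA2G4A frees from membranes. The cyclooxygenases PTGS1 and PTGS2 turn it into prostaglandin H2, from which terminal synthases make prostaglandin E2 (PTGES, PTGES2 and PTGES3) or prostacyclin (PTGIS). Prostaglandin E2 acts on neighbouring cells through receptors such as PTGER2 and PTGER4 and is inactivated by HPGD, and in the inflamed synovium the inducible enzymes PTGS2 and PTGES are known targets of IL-1.

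The levels were log2 signals, and experiments stood apart: array medians lay between 6.18 and 6.21 in experiment 1, between 7.14 and 7.19 in experiment 2 and between 7.49 and 7.54 in experiment 3. Every difference was therefore taken within an experiment and is given on the log2 scale as the mean ± SD over the 3 experiments. The test was limma's moderated test with the experiment as a block, called at an adjusted p under 0.05 over the 16872 genes that reached percentile 20 of their array on at least 3 arrays. Of the 10 prostaglandin genes 9 passed that filter, and PLA2G4A was left out as too dim. The synovial label was checked against 10 fibroblast markers. For 6 of them the median was above percentile 50 of all transcript clusters on an array (COL1A1 at 91.2 and VIM at 98.7). Below it stood CDH11 at 46.4, PDPN at 30.7, FAP at 25.7 and PRG4, which lining cells of the synovium make, at 14.7. The keratins KRT8 and KRT18 stood at 84.2 and 94.8, with CDH1 at 47.3 and EPCAM at 18.4. Of the macrophage markers, CD68 stood at 84.3 and the other 5 between 10.1 and 44.4, with PTPRC lowest. A percentile describes how bright a probe set was and does not compare transcript amounts between genes. The 3 endothelial markers stood between 22.6 and 40.1, and the 3 T and B cell markers measured stood between 15.0 and 29.2.

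The response to IL-1β itself was small in these libraries. No gene passed in IL-1β-stimulated cells against resting cells (0% of the 16872 genes by limma with the experiment block, where 491 genes were higher and 486 lower at an unadjusted p under 0.05). An unpaired test on values not centred by experiment also gave 0 genes after the adjustment applied here. It gave 2 genes higher and 0 lower at an unadjusted p under 0.05, and it does not repeat the study's own test. IL6, a cytokine induced by IL-1, was 1.24 ± 0.46 higher (2.37-fold, adjusted p by limma 0.169). NFKBIA, an inhibitor of NF-κB, was 0.85 ± 0.47 higher (adjusted p by limma 0.266). The chemokine CXCL8 was 0.60 ± 0.53 higher (1.20, 0.38 and 0.23 in the 3 experiments, adjusted p by limma 0.752). Each of these genes was higher in 3 of 3 experiments. Of the prostaglandin genes 0 of 9 were called in that comparison.

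GlcN was followed by lower signals of the receptor PTGER4 and the cyclooxygenase PTGS1 in IL-1β-stimulated cells. With alloxan added PTGER4 was again below IL-1β alone, while the PTGS1 value coincided with it in 2 of 3 experiments. A different GlcN effect with alloxan was not shown for either gene. The inducible cyclooxygenase PTGS2 and the synthase PTGES passed in no comparison. Their largest mean differences were with alloxan, where both were above IL-1β alone in 3 of 3 experiments without passing. The 250 bases before the start site are shown for the 2 genes that passed and for PTGS2, the cyclooxygenase that IL-1 is known to induce. The sequences are those of RefSeq on GRCh38.p14, read 5′ to 3′ on the gene's strand. Capitals mark every match, on either strand, to 7 motifs. These were GGGNNTTCC and GGGNNTTTC (NF-κB-like), TGACGTCA (cyclic AMP response element) and TGATGNAA (ATF4-like). The shorter ones were the AP-1 motif, spelled TGANTCA, the TATA box, whose letters were TATAAA, and the GC box, which was searched as GGGCGG. PTGER4 lies at chr5:40679665-40679914 on the plus strand, PTGS1 has windows at chr9:122370283-122370532 and chr9:122375052-122375301 on the plus strand, and PTGS2 lies at chr1:186680424-186680673 on the minus strand.
PTGER4: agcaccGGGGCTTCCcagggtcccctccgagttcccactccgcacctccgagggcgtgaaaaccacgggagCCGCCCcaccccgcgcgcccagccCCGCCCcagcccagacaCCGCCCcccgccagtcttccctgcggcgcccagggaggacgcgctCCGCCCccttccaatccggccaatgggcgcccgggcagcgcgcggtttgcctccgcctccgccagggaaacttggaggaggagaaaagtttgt
PTGS1, window 1: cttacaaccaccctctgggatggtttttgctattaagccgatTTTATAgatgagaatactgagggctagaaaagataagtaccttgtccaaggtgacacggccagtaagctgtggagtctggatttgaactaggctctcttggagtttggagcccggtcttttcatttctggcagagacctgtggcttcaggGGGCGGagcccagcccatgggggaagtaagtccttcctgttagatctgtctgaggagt
PTGS1, window 2: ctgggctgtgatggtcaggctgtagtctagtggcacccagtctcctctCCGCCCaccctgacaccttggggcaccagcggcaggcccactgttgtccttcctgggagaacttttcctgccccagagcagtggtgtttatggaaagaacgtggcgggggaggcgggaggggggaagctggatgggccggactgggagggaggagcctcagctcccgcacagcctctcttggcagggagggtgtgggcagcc
PTGS2: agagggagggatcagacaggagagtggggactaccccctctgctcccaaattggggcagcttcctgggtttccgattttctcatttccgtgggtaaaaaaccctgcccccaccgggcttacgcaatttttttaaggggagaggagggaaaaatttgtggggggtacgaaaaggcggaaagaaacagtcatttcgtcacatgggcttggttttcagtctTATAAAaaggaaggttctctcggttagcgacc

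The PTGER4 window held 1 NF-κB-like match (GGGNNTTCC, first base at -244, counted from the start site) and 4 GC boxes. The first PTGS1 window held the TATA box letters on the opposite strand (TTTATA) at -208 and a GC box at -58. The second held a GC box at -202. The PTGS2 window held a TATA box at -32 and none of the other letters searched. In these windows no matches overlapped. Of the 10 genes 9 had a window, 13 windows in all, and the NF-κB-like letters found in PTGER4 were also in the window of PTGER2 (-155), a gene that passed in no comparison. The other NF-κB-like letters were in a window of PTGES2 (-165), and none of the 13 held the letters of the cyclic AMP response element, AP-1 or ATF4-like motifs. Of all 35116 windows of this length, 5.78% held the NF-κB-like letters found in PTGER4 and 4.16% the other NF-κB-like ones. A GC box was in 42.6%, a TATA box in 10.7%, an AP-1 motif in 6.57%, an ATF4-like motif in 3.14% and a cyclic AMP response element in 1.65%. A match describes the letters only, and a window without a match can still hold a site with other letters.

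PTGS1, the cyclooxygenase that most tissues express constantly, had signals of 6.21, 7.23 and 7.68 in IL-1β+GlcN cells of experiments 1, 2 and 3, against 6.79, 7.39 and 7.98 in IL-1β cells. In IL-1β+GlcN+alloxan cells it had 6.79, 7.39 and 7.90, in IL-1β+alloxan cells 6.81, 7.51 and 7.96, and in resting cells 7.04, 7.39 and 8.04. The IL-1β+GlcN array was thus the lowest of the 5 in each experiment. PTGS1 fell with GlcN by 0.35 ± 0.21 against IL-1β alone (0.785-fold, 95% interval -0.55 to -0.15, adjusted p = 0.0318). That call did not hold when any experiment was left out (adjusted p = 0.0880, 0.0888 and 0.22 without experiments 1, 2 and 3). It was also lost with no experiment block (adjusted p = 1) and with the block fitted over the compared groups only (adjusted p = 0.244).

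With alloxan beside GlcN, PTGS1 was 0.32 ± 0.22 above IL-1β+GlcN (1.25-fold, 95% interval 0.12 to 0.53, 3 of 3 experiments higher), with an adjusted p of 0.0628 that became 0.0427 with a filter at percentile 50 and 0.0419 under quantile normalization. Against IL-1β alone the same cells differed by -0.03 ± 0.05 (95% interval -0.23 to 0.18, adjusted p = 0.921). The values of these 2 conditions coincided in 2 of the 3 experiments, which does not measure equal amounts. The GlcN difference of PTGS1 was -0.07 ± 0.05 in the presence of alloxan and -0.35 ± 0.21 in its absence. The test of this difference between differences, the interaction of GlcN and alloxan, gave 0.28 ± 0.25 (0.55, 0.05 and 0.25 in the 3 experiments, 95% interval 0.00 to 0.57, adjusted p = 0.459), so that it did not pass. Alloxan without GlcN left PTGS1 at 0.04 ± 0.07 from IL-1β alone (adjusted p = 0.87).

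PTGS2, the inducible cyclooxygenase, was dim on every array, between percentiles 21.2 and 32.7. Its signals were 4.45, 5.74 and 5.68 in IL-1β cells, against 4.45, 5.74 and 5.79 in resting cells. The values coincided in 2 of the 3 experiments and the difference was -0.04 ± 0.06 (95% interval -0.19 to 0.11, adjusted p = 1). IL-1β+GlcN+alloxan cells had 4.48, 5.74 and 5.94, IL-1β+GlcN cells 4.42, 5.58 and 5.79, and IL-1β+alloxan cells 4.54, 6.06 and 5.94. The highest mean was that of the IL-1β+alloxan cells, and neighbouring conditions in the order of means lay within their spread. The difference with alloxan against IL-1β alone was 0.22 ± 0.11 (1.17-fold, 95% interval 0.08 to 0.37, 3 of 3 experiments higher, adjusted p = 0.0511). It passed under quantile normalization of all arrays (adjusted p = 0.0480) and with an intensity trend in the moderation (adjusted p = 0.0493). With GlcN against IL-1β alone PTGS2 differed by -0.03 ± 0.14 (95% interval -0.18 to 0.12, adjusted p = 0.871), and with both agents by 0.10 ± 0.14 (adjusted p = 0.403).

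**Figure D1:**
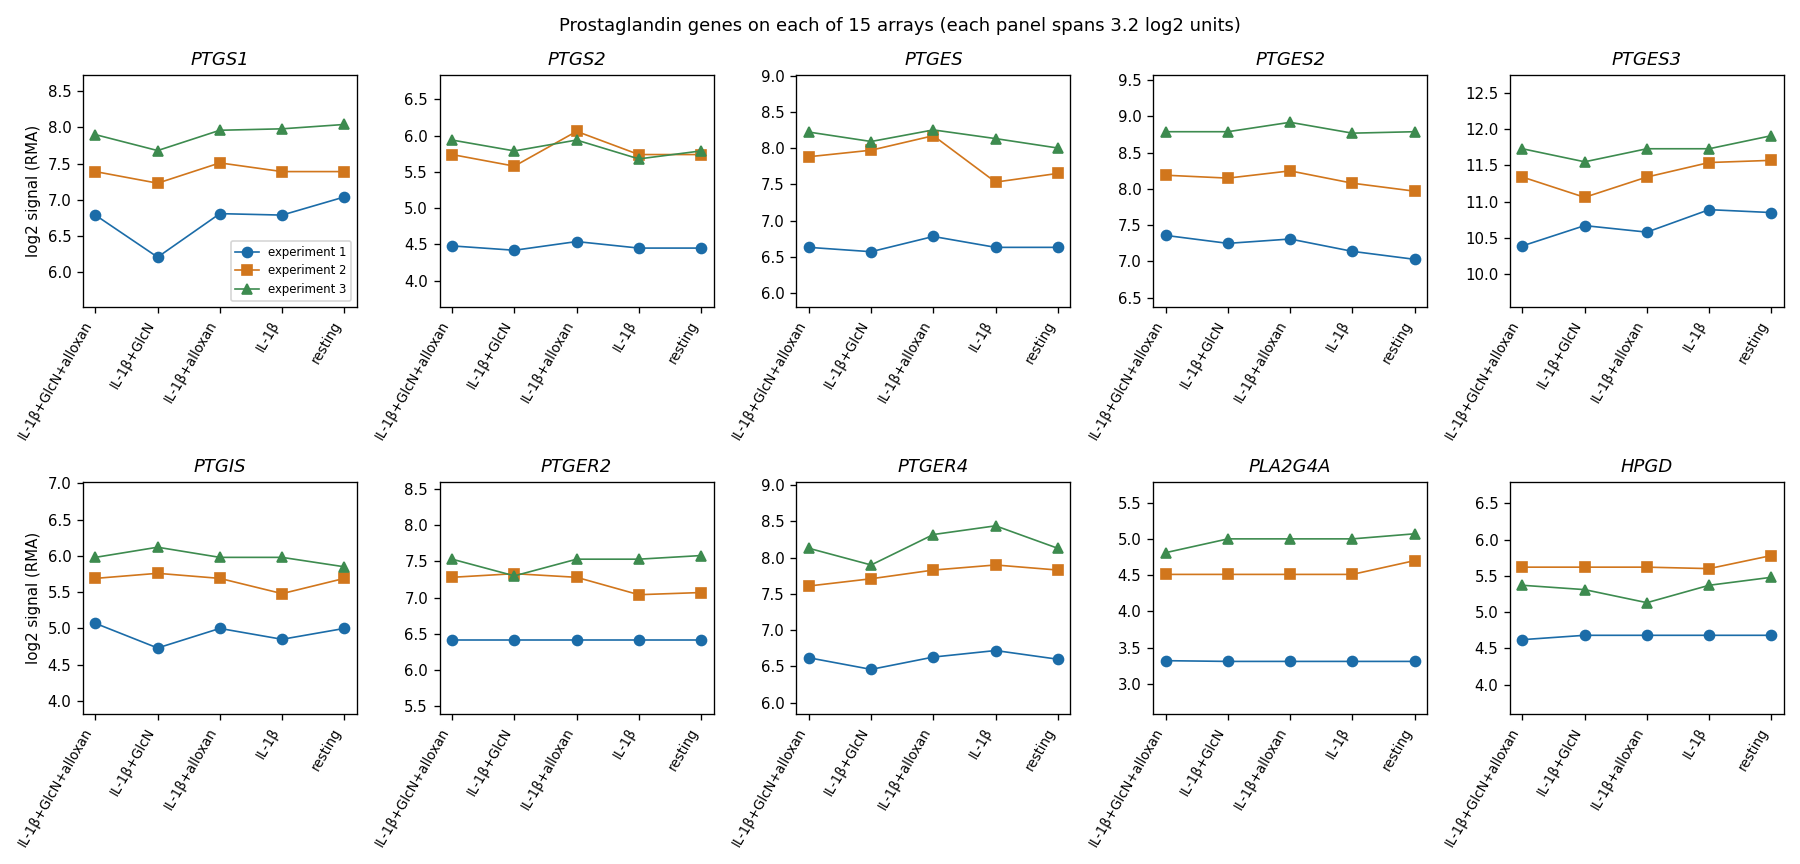
Log2 signal (vertical axis, RMA) of the 10 prostaglandin genes on each of the 15 arrays, by condition (horizontal axis), with 1 line for each experiment. Experiment 1 lies lowest in every panel, and PTGS1 dips in IL-1β+GlcN cells of all 3 experiments (6.21, 7.23 and 7.68).

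Among the synthases, PTGES encodes the microsomal prostaglandin E synthase that is induced together with PTGS2 in many cells. In IL-1β cells it had 6.63, 7.53 and 8.13, against 6.63, 7.65 and 8.0 in resting cells, a difference of 0.00 ± 0.13 (95% interval -0.21 to 0.21, adjusted p = 1). It had 6.63, 7.88 and 8.22 in IL-1β+GlcN+alloxan cells, 6.57, 7.97 and 8.09 in IL-1β+GlcN cells, and 6.78, 8.17 and 8.25 in IL-1β+alloxan cells. The IL-1β+alloxan array was the highest of the 5 in each experiment. Its difference from IL-1β alone was 0.30 ± 0.30 (1.23-fold, 95% interval 0.09 to 0.51, adjusted p = 0.0610), and experiment 2 gave 0.64 while the others gave 0.15 and 0.12. It passed with a filter at percentile 50 (adjusted p = 0.0403) and under quantile normalization (adjusted p = 0.0421).

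PTGES2, a membrane-associated synthase, had 7.31, 8.25 and 8.92 in IL-1β+alloxan cells, against 7.14, 8.08 and 8.77 in IL-1β cells. Alloxan was higher in 3 of 3 experiments by much the same amount, 0.17, 0.18 and 0.14, with a mean of 0.16 ± 0.02 (1.12-fold, adjusted p = 0.0770). PTGES2 had 7.36, 8.19 and 8.79 with both agents, 7.25, 8.15 and 8.79 with GlcN and 7.03, 7.97 and 8.79 in resting cells. The differences from IL-1β alone were 0.12 ± 0.10 with both agents (adjusted p = 0.174) and 0.07 ± 0.04 with GlcN (adjusted p = 0.51).

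PTGES3, a cytosolic synthase that also serves as a co-chaperone of HSP90, lay between percentiles 92.5 and 95.7. It had 10.67, 11.06 and 11.55 in IL-1β+GlcN cells, against 10.89, 11.54 and 11.73 in IL-1β cells. It was lower in 3 of 3 experiments by a mean of -0.29 ± 0.17 (0.816-fold, 95% interval -0.50 to -0.09), with an adjusted p of 0.0637 that became 0.0426 with a filter at percentile 50 and 0.0475 under quantile normalization. IL-1β+GlcN+alloxan cells had 10.39, 11.34 and 11.73, IL-1β+alloxan cells 10.58, 11.34 and 11.73, and resting cells 10.85, 11.57 and 11.91. In the conditions with alloxan the signal was below IL-1β alone in experiments 1 and 2 and tied with it in experiment 3, with differences of -0.23 ± 0.25 with both agents (adjusted p = 0.119) and -0.17 ± 0.15 with alloxan (adjusted p = 0.289).

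PTGIS, the prostacyclin synthase, lay between percentiles 24.0 and 32.0. It had 5.07, 5.69 and 5.98 in IL-1β+GlcN+alloxan cells, 4.73, 5.76 and 6.12 in IL-1β+GlcN cells, 5.00, 5.69 and 5.98 in IL-1β+alloxan cells, 4.85, 5.48 and 5.98 in IL-1β cells and 5.00, 5.69 and 5.85 in resting cells. Several of these values coincided, and no difference of PTGIS passed: the largest mean was 0.14 ± 0.12 with both agents against IL-1β alone (adjusted p = 0.377).

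Of the receptors, PTGER4, which raises cyclic AMP when it binds prostaglandin E2, had 6.46, 7.71 and 7.90 in IL-1β+GlcN cells, against 6.72, 7.90 and 8.44 in IL-1β cells. It fell in 3 of 3 experiments by 0.33 ± 0.19 (0.797-fold, 95% interval -0.48 to -0.17, adjusted p = 0.0113). In bulk cultures, fewer cells that carry a transcript and less of it per cell cannot be told apart. With PTGS1 this made 2 of the 9 tested prostaglandin genes called lower with GlcN and 0 called higher, where 6.62% of all genes tested were called lower and 5.29% higher (11.9% in either direction). The median difference of the 9 genes was -0.015, against 0.007 over all genes tested.

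In IL-1β+GlcN+alloxan cells PTGER4 had 6.62, 7.61 and 8.13, again below IL-1β alone in each experiment. It fell by 0.23 ± 0.12 (0.851-fold, 95% interval -0.39 to -0.08, adjusted p = 0.0411), the 1 call among the 9 genes in that comparison, where 17.5% of all genes were called (8.47% lower and 9.06% higher). Without experiments 1, 2 and 3 the adjusted p of the GlcN difference was 0.0859, 0.0548 and 0.141, and that of the difference with both agents was 0.112, 0.208 and 0.167. With no experiment block both were 1, and with the block over the compared groups only they were 0.233 for GlcN and 0.177 for both agents. Under quantile normalization the difference with both agents had an adjusted p of 0.0886.

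IL-1β+alloxan cells had PTGER4 signals of 6.63, 7.83 and 8.32, and resting cells 6.60, 7.83 and 8.13. Alloxan differed from IL-1β alone by -0.09 ± 0.03 (adjusted p = 0.464), and GlcN differed by -0.14 ± 0.11 in the presence of alloxan (adjusted p = 0.362). The interaction was 0.19 ± 0.19 (adjusted p = 0.498), so that a different GlcN effect with alloxan was not shown. PTGER4 also had the lowest unadjusted p of the 9 genes for IL-1β against resting cells. The difference was 0.17 ± 0.13 (1.12-fold, 3 of 3 experiments higher) and its adjusted p by limma was 0.816.

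PTGER2, another receptor that raises cyclic AMP, had 6.42 on all 5 arrays of experiment 1. In experiment 2 it had 7.28 with both agents, 7.33 with GlcN, 7.28 with alloxan, 7.04 with IL-1β alone and 7.07 at rest, and in experiment 3 it had 7.53, 7.30, 7.53, 7.53 and 7.58 in the same order. The GlcN difference pointed upward in experiment 2 (0.29) and downward in experiment 3 (-0.23), with a mean of 0.02 ± 0.26 (adjusted p = 0.939).

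**Figure D2:**
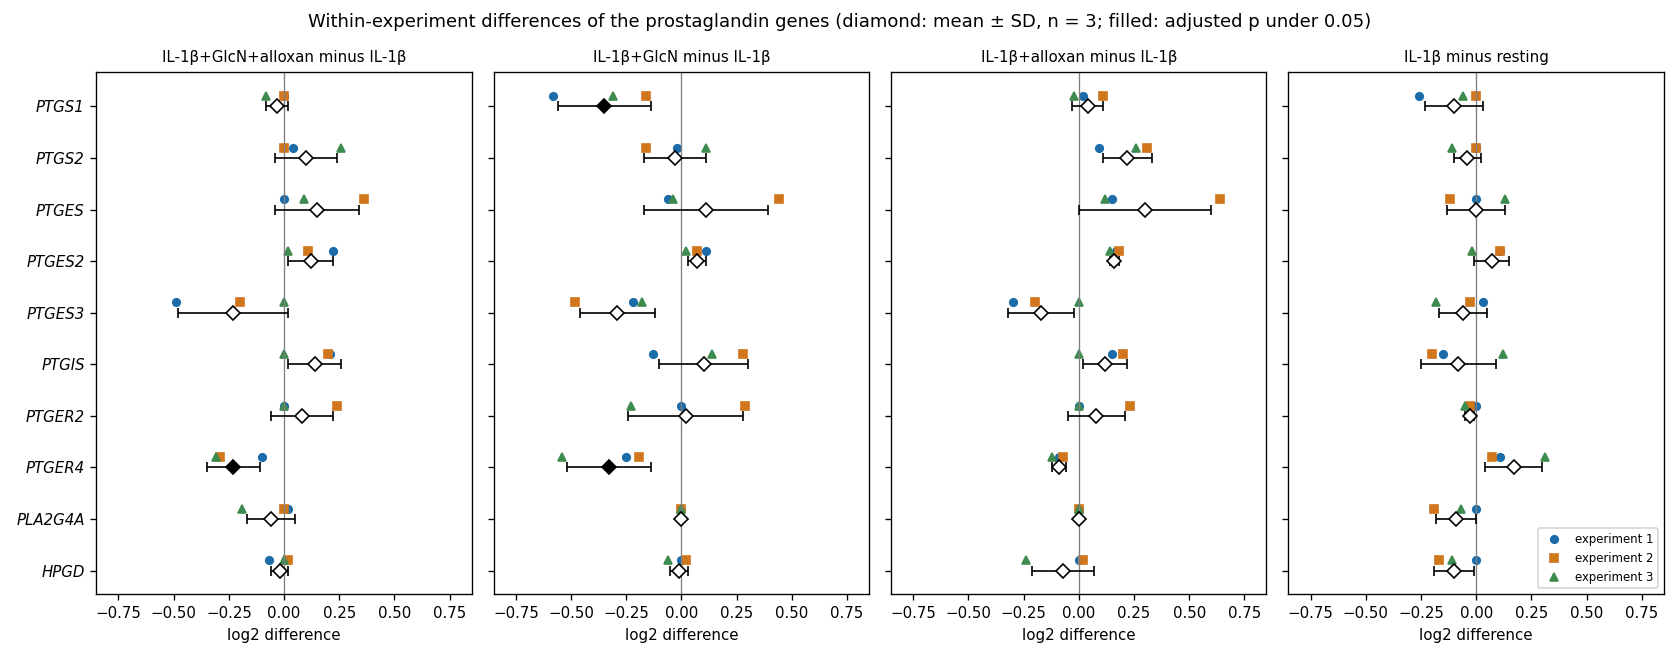
Within-experiment log2 differences (horizontal axis) of the 10 prostaglandin genes in 4 comparisons, with a symbol for each experiment and a diamond with bars for the mean ± SD (n = 3). Filled diamonds passed the test: PTGS1 (-0.35) and PTGER4 (-0.33) with GlcN, and PTGER4 (-0.23) with GlcN and alloxan.

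The phospholipase and the degrading enzyme were dim. PLA2G4A lay between percentiles 11.2 and 16.1, and in IL-1β+GlcN, IL-1β+alloxan and IL-1β cells it had the same values, 3.31, 4.51 and 5.00 in experiments 1, 2 and 3. With both agents it had 3.32, 4.51 and 4.81, and at rest 3.31, 4.70 and 5.07, and it was not tested. HPGD, which oxidises prostaglandins to inactive forms, lay between percentiles 14.9 and 29.0. Its signals were 4.62, 5.62 and 5.37 with both agents, 4.68, 5.62 and 5.31 with GlcN, 4.68, 5.62 and 5.13 with alloxan, 4.68, 5.60 and 5.37 with IL-1β alone and 4.68, 5.78 and 5.48 at rest. The resting arrays were the highest or tied for it in each experiment, and the difference of IL-1β from rest was -0.10 ± 0.09 (adjusted p = 0.892).

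Values that coincided were frequent. RMA fits arrays together by a polish on medians, and of the 30 sets of a prostaglandin gene in an experiment 20 had at least 2 of the 5 arrays at the same middle value, to within 0.001. In 13 sets at least 3 arrays coincided and in 1 set all 5 did. Over all genes tested the shares were 54.9%, 31.8% and 3.25%. A tied pair shows that the summary did not separate the arrays, and it is not a measurement of equal amounts.

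For the remaining comparisons, alloxan against IL-1β alone called 0 of the 9 prostaglandin genes, with 13.3% of all genes called. Their median difference was 0.079, against 0.015 over all genes. GlcN with alloxan against GlcN called 0 of 9 (6.79% of all genes), where the median difference of the 9 was 0.061, against -0.007 over all genes. GlcN with alloxan against alloxan called 0 of 9 (3.53% of all genes), and the interaction called 0 of 9 (0.0711% of all genes). The comparisons against IL-1β share the same 3 IL-1β arrays. By mean over the experiments, PTGS1 was highest at rest and lowest with GlcN, and PTGER4 was highest with IL-1β alone. PTGS2, PTGES and PTGES2 were highest with alloxan, and PTGES3 and HPGD at rest. The top 2 conditions lay within their spread in PTGS2 (0.12 ± 0.16), PTGES2 (0.04 ± 0.09) and PTGES3 (0.06 ± 0.11). They did not in PTGES (0.15 ± 0.13) and HPGD (0.10 ± 0.09). Of the neighbours in the order of PTGS1, only the lowest 2 conditions differed by more than their spread, and in PTGER4 only the highest 2 did (0.09 ± 0.03).

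**Figure D3:**
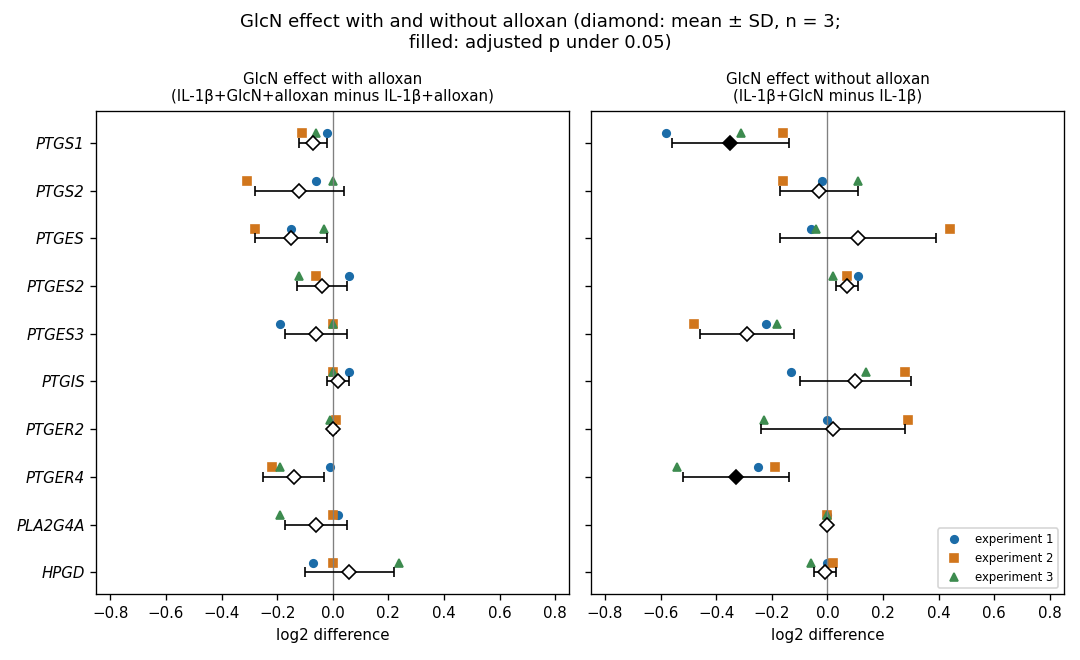
Log2 difference made by GlcN (horizontal axis) in the presence of alloxan (left) and in its absence (right) for the 10 prostaglandin genes, with a symbol for each experiment and a diamond with bars for the mean ± SD (n = 3). PTGS1 stands at -0.07 with alloxan and at -0.35 without it, and the interaction of the 2 agents passed for none of the 9 genes tested.

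The wider pathway was read from 5 lists. Against IL-1β alone, GlcN with alloxan called 17.5% of all genes tested, GlcN 11.9% and alloxan 13.3%. Against GlcN, GlcN with alloxan called 6.79%. With so few genes in each list, a count of 0 to 3 is not set apart from those shares. The 7 other prostanoid receptors gave 0 calls in every comparison. Among 11 genes tested that free or handle arachidonic acid, GlcN with alloxan called 3 lower than IL-1β alone, GlcN called 1 higher and 1 lower, and alloxan called 2 lower. MGLL, which encodes monoacylglycerol lipase, had 6.70, 7.79 and 8.19 with both agents, 7.14, 8.24 and 8.40 with GlcN and 6.81, 8.04 and 8.38 with alloxan, against 7.44, 8.39 and 8.72 with IL-1β alone. All 3 conditions lay below IL-1β in each experiment: MGLL fell by 0.62 ± 0.10 with both agents (0.650-fold, adjusted p = 0.000111), by 0.44 ± 0.16 with alloxan (adjusted p = 0.00191) and by 0.26 ± 0.09 with GlcN (adjusted p = 0.0321, or 0.0668 under quantile normalization). ACSL4, an acyl-CoA ligase that prefers arachidonic acid, fell by 0.51 ± 0.09 with both agents (0.701-fold, adjusted p = 0.00161). LPCAT3, which returns polyunsaturated acyl chains to phospholipids, fell by 0.23 ± 0.09 with both agents (adjusted p = 0.00579) and by 0.25 ± 0.02 with alloxan (adjusted p = 0.00581). The phospholipase PLA2G6 rose with GlcN by 0.19 ± 0.02 (adjusted p = 0.0163) and was 0.20 ± 0.04 lower with both agents than with GlcN (adjusted p = 0.0209). MGLL differed by -0.36 ± 0.13 in that comparison of both agents with GlcN (adjusted p = 0.0108).

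Of 6 turnover and transport genes tested, 1 passed with alloxan, where 13.3% of all genes did, and it was ABCC4, an export pump that carries prostaglandin E2 out of cells. ABCC4 had 7.81, 9.02 and 9.49 with both agents, 8.69, 9.61 and 9.94 with GlcN and 7.72, 8.94 and 9.27 with alloxan, against 8.50, 9.46 and 10.03 with IL-1β alone. Both conditions with alloxan lay below both conditions without it in every experiment. ABCC4 fell by 0.69 ± 0.14 with alloxan (0.620-fold, adjusted p = 0.000194) and by 0.56 ± 0.12 with both agents (adjusted p = 0.000383), while GlcN gave 0.08 ± 0.15 (adjusted p = 0.56). With both agents against GlcN, ABCC4 differed by -0.64 ± 0.22 (adjusted p = 0.00071). Of the 5 other synthases tested, CBR1, a carbonyl reductase that can convert prostaglandin E2, fell with GlcN by 0.32 ± 0.03 (0.798-fold, adjusted p = 0.0283).

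Of 5 lipoxygenase-pathway genes tested, ALOX5AP, the protein that presents arachidonic acid to the leukotriene-forming lipoxygenase, had 6.09, 6.96 and 6.76 with GlcN, against 4.63, 6.07 and 6.38 with IL-1β alone. With both agents it had 5.07, 6.07 and 6.54, and with alloxan 5.07, 5.84 and 6.50. The 4.63 of IL-1β cells in experiment 1 was dim, below that array's median of 6.21. The GlcN array was the highest in each experiment, and ALOX5AP rose by 0.91 ± 0.54 (1.88-fold, adjusted p = 0.00458, with 1.46, 0.89 and 0.38 in the 3 experiments). It was 0.71 ± 0.43 lower with both agents than with GlcN (0.611-fold, adjusted p = 0.0272), its interaction was -0.82 ± 0.58 (adjusted p = 0.276), and its partner ALOX5 was 0.21 ± 0.12 lower in the same comparison of both agents with GlcN (adjusted p = 0.0259). Without single experiments, ABCC4, ACSL4, and MGLL with alloxan or both agents against IL-1β alone stayed under 0.05 in each of the 3 fits. The GlcN rise of ALOX5AP stayed there only without experiment 3 (adjusted p = 0.0149, against 0.110 and 0.100 without experiments 1 and 2). The other calls in these lists were lost whichever experiment was left out, except LPCAT3 with alloxan, which held without experiment 2 (adjusted p = 0.0427). PLA2G6, ALOX5 and ALOX5AP did not reach a filter at percentile 50, and the 11 calls of the other genes stayed under 0.05 with it. None of the 16 calls in these lists remained with no experiment block or with the block over the compared groups only. None remained after adjustment by the unpaired test on values not centred by experiment.

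**Figure D4:**
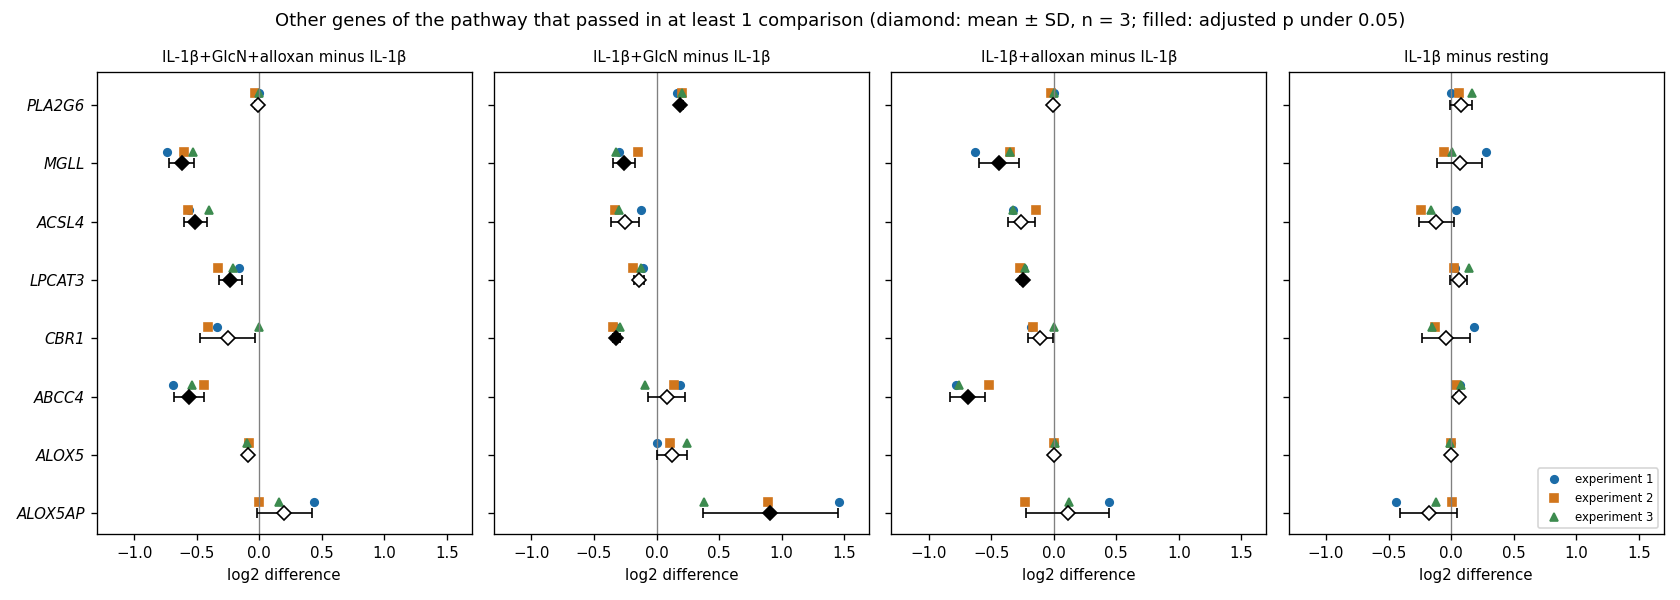
Within-experiment log2 differences (horizontal axis) of the 8 genes of the wider pathway that passed in at least 1 comparison, with a symbol for each experiment and a diamond with bars for the mean ± SD (n = 3). ABCC4 lies at -0.56 and -0.69 in the conditions with alloxan and at 0.08 with GlcN, and ALOX5AP lies at 0.91 with GlcN.

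As a description of likeness, values were centred within each experiment and correlated over the 15 arrays. The arrays of each experiment share its normalization. The genes most like PTGS1 were AFF1 (Pearson's r = 0.914), C1QL1 (0.908) and RFX7 (0.896), and those most like PTGS2 were UNC119 (0.909), SLC2A3 (0.905) and USP4 (0.889). Those most like PTGES were DLG5 (0.964), CXXC5 (0.946) and SNAP47 (0.946). Within the 9 tested prostaglandin genes, r ranged between -0.66 for PTGES2 with PTGES3 and 0.62 for PTGES with PTGER2. PTGES3 and PTGIS had -0.61, PTGES and PTGES2 0.56, PTGS2 and PTGES 0.52, and the cyclooxygenases PTGS1 and PTGS2 0.28.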

How the data were processed

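RNA of MH7A cells was hybridised to 15 arrays. The log2 values deposited by the authors, for 33297 transcript clusters, were made with the RMA method of the Expression Console software (versions not given in the sources used here). Since that method corrects background and normalizes, neither step was repeated. The deposited values were not at 1 common level, since array medians were close within an experiment and apart between experiments. The experiments were therefore treated as normalized separately. Of the clusters, 19460 had 1 gene symbol, 1754 several and 12083 none; symbols were updated through RefSeq gene IDs for 19429. The cluster with the highest mean stood for each of 18417 genes, and 16872 reached percentile 20 on at least 3 arrays.

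Differences were tested with limma 3.58.1 in R 4.3.3 over all 15 arrays, with condition means and the experiment number of the labels as a fixed block, two-sided, with Benjamini-Hochberg adjustment over all genes tested. An unpaired t-test on values not centred by experiment was an alternative, and it does not repeat the study's own test. Other alternatives were no block, a block over the compared groups only, other filters, averaging of clusters and quantile normalization of all arrays. An intensity trend with robust moderation and leaving out each experiment were also run. Same-numbered arrays deviated together from their group means (lowest correlation 0.621 and highest 0.848 in 30 pairs). The 75 other pairs lay between -0.723 and -0.068, but subtracting a group's mean pushes such correlations toward negative values by construction. The numbers thus mark arrays with a shared deviation. Arrays processed or normalized together would also deviate together, so the check cannot show that the cells were paired, which was not tested. No arrays were duplicates, since the smallest median absolute difference between any 2 was 0.0539. The scripts were tested on simulated data. Precision is limited by the number of arrays.

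The members and gene lists were chosen with earlier results of these data known. All 10 members were named in every comparison, list genes where they passed, the 3 genes most correlated with each of PTGS1, PTGS2 and PTGES, and IL6, CXCL8 and NFKBIA. Of 40 list genes, 34 were tested. Promoter windows came from RefSeq, and PTGIS had none. Figures used matplotlib 3.10.9.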

Additional observations from a re-analysis of the deposited data

How the results depend on the processing

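The settings compared were the other filters, averaging of clusters, quantile normalization and an intensity trend. No experiment block, the block over the compared groups only and the unpaired t-test were also compared. Under these, 456 values of the 9 tested prostaglandin genes kept their direction and side of the threshold, and 0 reversed. Another 8 newly passed and 10 no longer passed. With no experiment block the counts of genes called were 4 for GlcN against IL-1β (2010 with it), 0 for alloxan (2250), 1 for both agents (2958), 0 for both agents against GlcN (1145), 0 for both agents against alloxan (595) and 0 for the interaction (12). In that fit every gene had the same standard error of 0.596, and 0 prostaglandin genes were called, against 2 for GlcN and 1 for both agents with the block. With the block over the compared groups only, the counts were 1, 0, 276, 0 and 0 in the first 5 of these comparisons, and 0 prostaglandin genes for GlcN and for both agents. The unpaired t-test, not run for the interaction, called 0 genes in each after adjustment, and 0 prostaglandin genes. Fewer arrays or a spread that holds the experiments' levels enters these fits by construction. A filter at percentile 50 called 19 genes for the interaction, 1 prostaglandin gene for alloxan and 1 for both agents against GlcN. Quantile normalization called 23 genes for the interaction, and 2, 0 and 1 prostaglandin genes for alloxan, for both agents against IL-1β and for both agents against GlcN. The intensity trend called 1 for alloxan. The cause of the last 3 sets of changes was not tested.

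Without single experiments the counts of genes called ranged between 675 and 912 for GlcN, 761 and 885 for alloxan, 1373 and 1655 for both agents, 157 and 427 for both agents against GlcN, 97 and 151 for both agents against alloxan, 0 and 0 for the interaction, and 0 and 1 for IL-1β against rest. No prostaglandin gene was called in these fits (0 to 0 for GlcN and for both agents). Signs changed only in small differences. For GlcN these were PTGS2 (-0.09 to 0.04), PTGES (-0.05 to 0.20), PTGER2 (-0.12 to 0.14) and HPGD (-0.03 to 0.01). For both agents against GlcN they were PTGES (-0.01 to 0.09), PTGES3 (-0.05 to 0.23), PTGIS (-0.11 to 0.13), PTGER2 (-0.02 to 0.12) and HPGD (-0.03 to 0.03). For IL-1β against rest it was PTGES (-0.06 to 0.07). HPGD ranged between -0.12 and 0.01 for alloxan, -0.03 and 0.01 for both agents, and -0.03 and 0.12 for both agents against alloxan, and in the interaction PTGIS ranged between -0.21 and 0.02, PTGER2 between -0.14 and 0.11 and HPGD between -0.04 and 0.14. Probe sets near the dim end of the array, such as PTGS2, PTGIS, HPGD and PLA2G4A, and values tied by the RMA summary limit what small differences can show.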
